A study of Mus musculus with 75 samples.

Results

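Expression of 10 genes that serve peptide loading of MHC class I molecules was followed in mouse embryonic fibroblasts (MEFs) that carried different forms of the NF-kB subunit RelA and were stimulated with tumour necrosis factor (TNF). The genes were chosen by name: the immunoproteasome subunits Psmb8, Psmb9 and Psmb10, the peptide transporter subunits Tap1 and Tap2, the peptide editors Tapbp and Tapbpl, the light chain B2m, the heavy chain H2-K1 and the transcriptional regulator Nlrc5. Each of the 10 names matched 1 of the 45706 gene entries of the count tables, and all 10 passed the filter on low counts.

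Class I molecules show short peptides from inside the cell to CD8+ T cells. The proteasome cuts proteins into peptides, and cytokines can replace its catalytic subunits with those of the immunoproteasome, which favours peptides that class I molecules bind well. The transporter TAP carries peptides into the endoplasmic reticulum, where tapasin (Tapbp) and its relative TAPBPR (Tapbpl) help to load them onto a heavy chain paired with beta-2-microglobulin (B2m). NLRC5, a NOD-like receptor family member, acts in the nucleus as a coactivator of class I genes, several of which are also known targets of NF-kB and interferon regulatory factors.

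All cells were p53-/-crel-/-rela-/- MEFs of C57BL/6 embryos, so every group, the empty vector included, lacked p53, cRel and the endogenous RelA. They received the retroviral vector pBABE-puro empty (EV) or with 1 of 10 forms of RelA. These were RelA-WT, RelA-DB and RelA-dCterm, then RelA-dTAD and RelA-dTA1, the TA2 forms RelA-TA2_S467A, RelA-TA2_CI and the double form RelA-TA2_CI_S467A, and lastly the joined forms RelA-TA2_CI_S467A-dTA1 and RelA-TA2_CI-dTA1. The labels give the mutants by these names alone. As background, RelA binds DNA through its Rel homology domain and activates transcription through 2 C-terminal regions called TA1 and TA2. Cells were starved overnight in 0.5% serum and given TNF at 10 ng/ml, and RNA was taken at 0 h without TNF and at 0.5, 1, 3 and 8 h with it. The series used here has no library without TNF at the later times, so a change from 0 h holds both the time in low serum and the cytokine. RelA-WT, EV, RelA-dTAD and RelA-dTA1 had 2 libraries at each time, 1 in each of 2 sets, and the other 7 constructs had 1: RelA-DB and RelA-dCterm in set 1, the 5 TA2 constructs in set 2. Whether the 2 libraries came from separate cultures or separate infections is not given in the sources used here, so p-values measure the spread between these libraries.

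The 75 libraries held 4422396 to 6915919 reads in genes in set 1 (30 libraries) and 10440202 to 22908738 in set 2 (45 libraries). Values are CPM, counts scaled to the size of each library, given for set 1 and then set 2, and changes are log2 fold changes ± SE from edgeR's quasi-likelihood test, called at a Benjamini-Hochberg adjusted p below 0.05 over all genes tested. All 10 fibroblast markers reached 1 CPM, with a summed level of 34993 to 55202 CPM. Of 11 leukocyte markers, 7, among them Ptprc and Cd3e, stayed under 1 CPM in every library, and the list summed to 3.03 to 8.69 CPM. The epithelial list summed to 2.42 to 13.5 CPM, and at 8 h to 5.50-13.5 CPM in EV, 5.30-9.63 CPM in RelA-dTAD, 10.5 CPM in RelA-dCterm, 7.13 CPM in RelA-DB and 5.47-5.64 CPM in RelA-WT. Endothelial markers, mostly Kdr and Tek with Pecam1 and Cdh5 under 1 CPM, went from 30.3-39.3 CPM at 0 h to 56.9-59.6 CPM at 8 h in EV, from 33.1-43.4 to 50.6-57.7 CPM in RelA-dTAD and from 39.5-46.8 to 35.1-40.8 CPM in RelA-WT. With RelA-DB they went from 33.6 to 47.9 CPM and with RelA-dCterm from 33.8 to 51.5 CPM. The part of these markers in the results was not tested. Less RNA per cell and fewer cells that hold it cannot be told apart in these bulk libraries. The Rela transcript was at 16.2 CPM in EV at 0 h, at 1311 CPM in RelA-WT and 1149 and 1459 CPM in RelA-dTA1 and RelA-dTAD, but at 658 CPM in RelA-DB and 531 CPM in RelA-dCterm. At 8 h it was at 1628 CPM in RelA-WT, 2185 CPM in RelA-dTA1 and 5270 CPM in RelA-dTAD (means over sets). The part of the Rela level in the results below was not tested.

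The 3 immunoproteasome genes rose between 6.05- and 11.5-fold with RelA-WT by 8 h, rose with RelA-dTA1 too, and stayed low in EV. Psmb8 encodes the subunit that takes the place of Psmb5, and it lies in the class II region of the MHC (mm10 chr17:34197721-34201454, plus strand). With RelA-WT it was at 13.4 and 22.1 CPM at 0 h, 59.4 and 77.2 CPM at 3 h, and 154 and 176 CPM at 8 h. RelA-dTA1 gave 15.0 and 26.1 CPM at 0 h, 43.3 and 83.6 CPM at 3 h, and 123 and 184 CPM at 8 h. At 8 h these constructs overlapped, and both lay above RelA-dTAD, which went from 15.2 and 28.9 CPM to 15.4 and 35.7 CPM and then 32.6 and 59.5 CPM. EV was lowest at every one of these times, with 1.38 and 5.62 CPM at 0 h, 1.26 and 4.59 CPM at 3 h, and 3.35 and 6.32 CPM at 8 h. The 8 h change was 3.18 ± 0.57 in RelA-WT (adjusted p = 0.00015), 2.88 in RelA-dTA1, 1.06 ± 0.54 in RelA-dTAD (adjusted p = 0.11) and 0.47 ± 0.77 in EV.

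Psmb9 replaces Psmb6 and stands head to head with Tap1 (chr17:34181988-34187764, minus strand), and the 2 gene models overlap on opposite strands. How strand was treated in counting is not given in the sources used here, so the split of reads in the overlap is uncertain. Psmb9 rose from 3.36 and 4.48 CPM to 34.2 and 37.0 CPM at 8 h with RelA-WT (3.15 ± 0.43, adjusted p = 4.5e-06) and from 3.76 and 5.90 CPM to 26.7 and 46.6 CPM with RelA-dTA1. With RelA-dTAD it went from 3.85 and 7.34 CPM to 6.93 and 11 CPM, and in EV from 0.83 and 1.69 CPM to 1.43 and 1.76 CPM. The highest RelA-dTAD library at 8 h was thus below the lowest RelA-WT and RelA-dTA1 libraries. Psmb10 (chr8:105935728-105938392, minus strand), which replaces Psmb7, was already well read at 0 h in every construct: 35.3 and 32.1 CPM in RelA-WT, 38.7 and 31.5 CPM in RelA-dTAD and 24.8 and 20.1 CPM in EV. At 8 h it had risen to 225 and 194 CPM in RelA-WT (2.64 ± 0.20, adjusted p = 6.2e-10) and 192 and 182 CPM in RelA-dTA1. RelA-dTAD reached 50.4 and 56.3 CPM, a smaller rise that also passed the test (0.64 ± 0.19, adjusted p = 0.0087), and EV had 20.1 and 19.6 CPM.

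**Figure D1:**
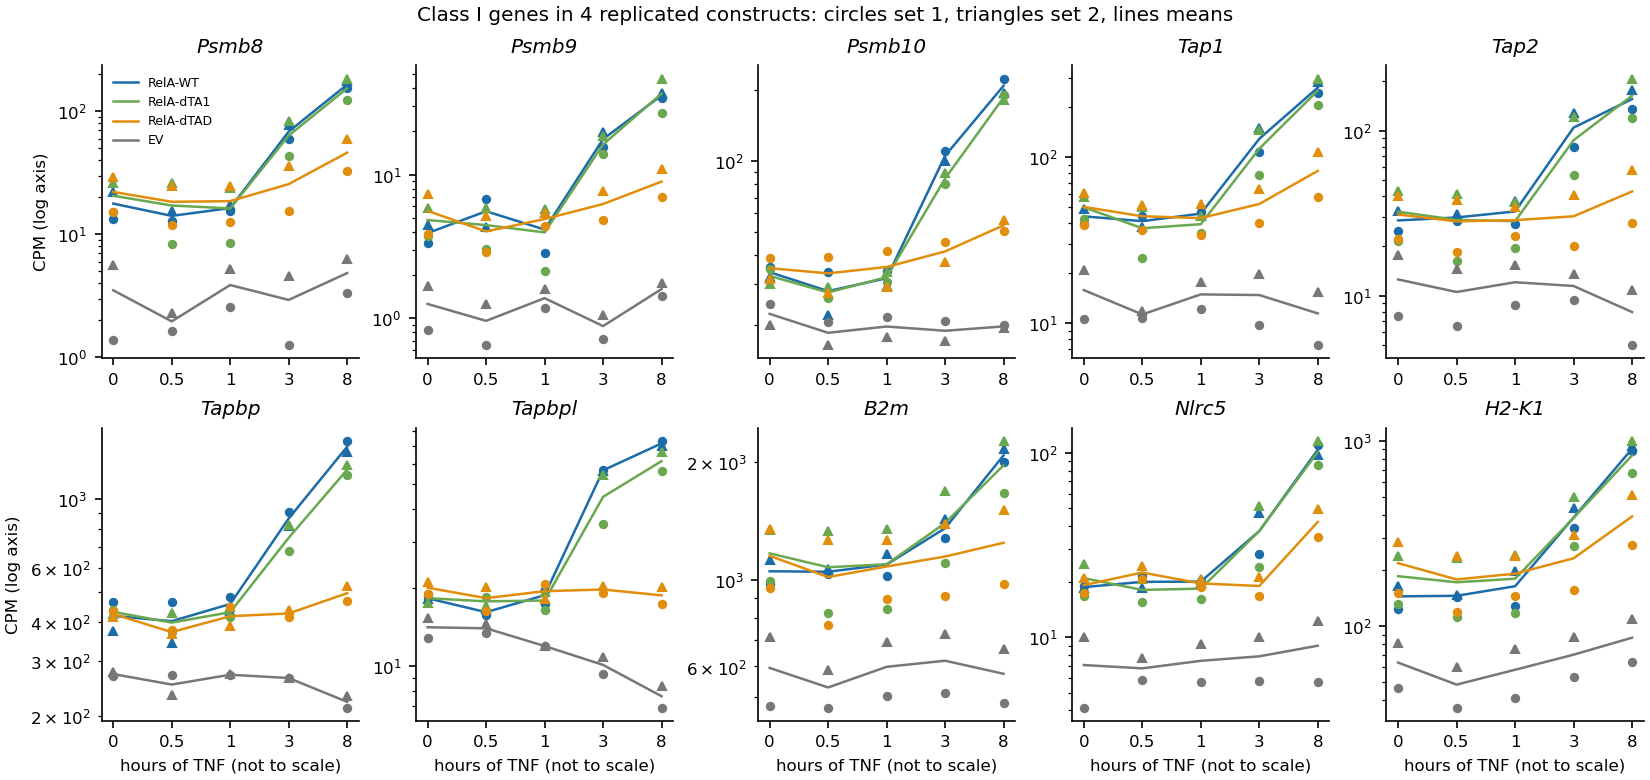
CPM (log axis) of the 10 genes at 0, 0.5, 1, 3 and 8 h of TNF (spaced evenly, not to scale) in RelA-WT, RelA-dTA1, RelA-dTAD and EV. Circles are set 1, triangles set 2, lines the mean of both. RelA-WT and RelA-dTA1 climb between 1 and 8 h in every panel, while EV lies lowest at 8 h.

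The 3 constitutive subunits Psmb5, Psmb6 and Psmb7 did not pass the test at 3 h or 8 h in RelA-WT, with a median 8 h change of 0.22. With the block Psmb7 was called there at 8 h (0.22, blocked adjusted p = 0.0049). It rose at 8 h by 0.35 in EV, 0.29 in RelA-dTA1 and 0.32 in RelA-dTAD without the block, and Psmb5 was called in RelA-dTAD with it (0.30, blocked adjusted p = 0.036). Each replaceable pair was followed as a ratio. In reads per kilobase, the ratio of Psmb8 to Psmb5 went from 0.244 ± 0.078 (SD, n = 2) at 0 h to 1.85 ± 0.20 at 8 h with RelA-WT, 7.61-fold higher. With RelA-dTA1 the ratio rose 6.88-fold to 2.08 ± 0.54, with RelA-dTAD 1.73-fold to 0.552 ± 0.255, and in EV it was 0.0570 at 8 h. Per length, the ratio passed 1 at 8 h in RelA-WT and RelA-dTA1 of these 4 constructs. Where it stands against 1 depends on the length scaling: as a plain ratio of counts it was 1.73 in RelA-dTAD and 5.83 in RelA-WT at 8 h, and 1.00 and 0.766 at 0 h. Among constructs with 1 library the 8 h ratio was 2.22 with RelA-TA2_CI, 2.13 with RelA-TA2_S467A and 2.48 with RelA-TA2_CI_S467A, but 0.780 with RelA-TA2_CI-dTA1, 1.00 with RelA-TA2_CI_S467A-dTA1, 0.0670 with RelA-dCterm and 0.0626 with RelA-DB. For Psmb10 and Psmb7 the RelA-WT ratio rose 5.32-fold to 1.63 ± 0.17, against 0.394 in RelA-dTAD and 0.148 in EV at 8 h. Psmb9 stayed well below Psmb6: the ratio rose 8.98-fold with RelA-WT, to 0.140 ± 0.014. These are ratios of message, and were described without a test.

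**Figure D2:**
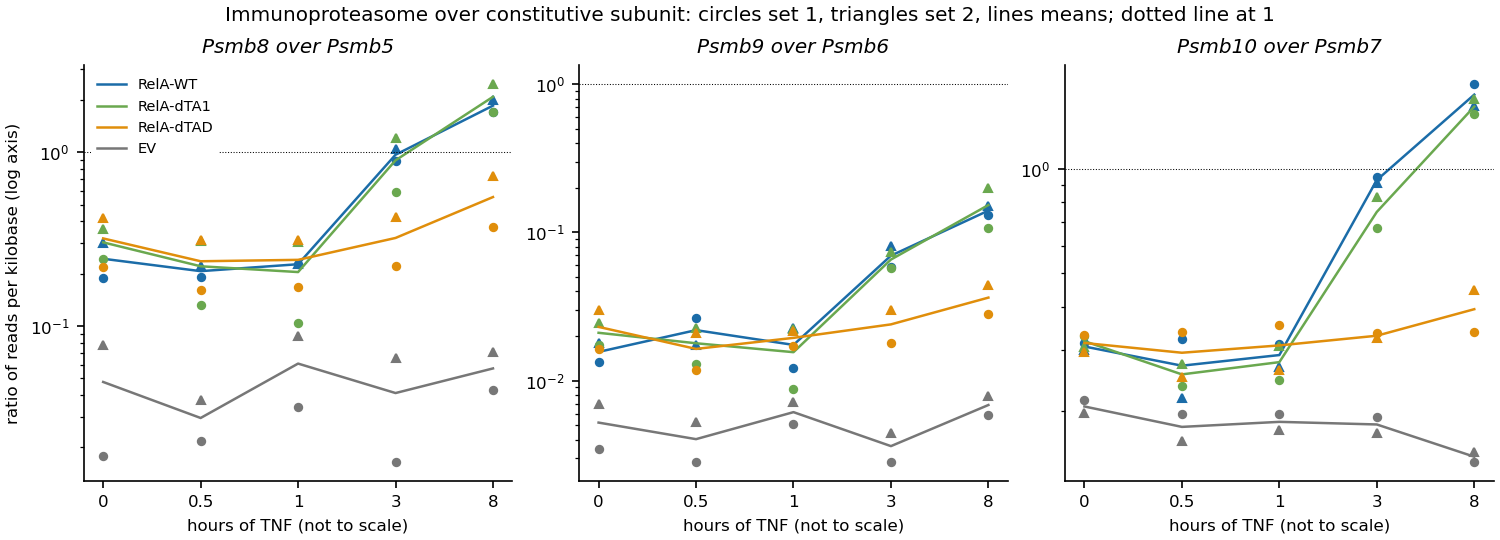
Ratio of each immunoproteasome subunit to the constitutive subunit it replaces, in reads per kilobase (log axis), at the 5 times in the 4 constructs with 2 libraries. The dotted line marks a ratio of 1, which Psmb8/Psmb5 and Psmb10/Psmb7 passed at 8 h in RelA-WT and RelA-dTA1, and Psmb9/Psmb6 did not.

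Both subunits of the peptide transporter rose together. Tap1 (chr17:34187553-34197225, plus strand) went from 39.6 and 48.4 CPM at 0 h to 108 and 150 CPM at 3 h and 242 and 281 CPM at 8 h with RelA-WT. With RelA-dTA1 it reached 205 and 297 CPM at 8 h, with RelA-dTAD 57.7 and 108 CPM from 39.3 and 61.0 CPM, and in EV it was at 10.7 and 21.0 CPM and then 7.41 and 15.5 CPM. The 8 h change was 2.56 ± 0.40 in RelA-WT (adjusted p = 2.7e-05) and 0.74 ± 0.38 in RelA-dTAD (adjusted p = 0.12). Tap2 (chr17:34203527-34216321, plus strand) went from 24.8 and 32.4 CPM to 136 and 176 CPM with RelA-WT (2.43 ± 0.55, adjusted p = 0.0016) and from 21.6 and 43.0 CPM to 119 and 207 CPM with RelA-dTA1. It was at 27.5 and 58.1 CPM with RelA-dTAD and 5.02 and 10.9 CPM in EV at 8 h. For both genes all 8 h libraries of RelA-WT and RelA-dTA1 lay above those of RelA-dTAD, which in turn lay above those of EV.

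Both peptide editors rose with RelA-WT and RelA-dTA1, and at 8 h with RelA-WT they gave closely matched values in the 2 sets. Tapbp (chr17:33915899-33929288, plus strand) encodes tapasin, which bridges TAP and class I molecules, and was highly read: 464 and 375 CPM at 0 h, 908 and 817 CPM at 3 h and 1529 and 1406 CPM at 8 h with RelA-WT. RelA-dTA1 gave 439 and 425 CPM at 0 h and 1193 and 1283 CPM at 8 h. RelA-dTAD stayed between 415 and 524 CPM at 0, 3 and 8 h, and EV between 213 and 277 CPM. The 8 h change was 1.81 ± 0.13 in RelA-WT (adjusted p = 1.7e-10), 1.53 in RelA-dTA1 and 0.24 ± 0.12 in RelA-dTAD (adjusted p = 0.11). Tapbpl (chr6:125223933-125231860, minus strand), which edits peptides outside the TAP complex, went from 18.4 and 18.1 CPM to 73.2 and 70.3 CPM at 8 h with RelA-WT (1.97 ± 0.15, adjusted p = 9.9e-10). RelA-dTA1 gave 18.9 and 17.5 CPM of Tapbpl at 0 h, 35.0 and 54.4 CPM at 3 h, and 56.4 and 66.3 CPM at 8 h. With RelA-dTAD it did not move beyond its spread, at 18.9 and 21.1 CPM and then 17.3 and 20.1 CPM. In EV it fell, from 12.9 and 15.3 CPM at 0 h to 6.93 and 8.39 CPM at 8 h (-0.83 ± 0.18, adjusted p = 0.0004). Tapbpl was the only member called lower in EV, where 23.1% of the 13665 genes tested were called lower at 8 h.

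The 2 chains of the class I complex changed by different amounts, B2m least of the 10 genes. B2m (chr2:122147686-122153083, plus strand) was at 976 and 1125 CPM in RelA-WT, 954 and 1346 CPM in RelA-dTAD and 475 and 715 CPM in EV at 0 h. It rose 2.05- and 1.92-fold with RelA-WT, to 1996 and 2160 CPM at 8 h (0.98 ± 0.32, adjusted p = 0.022). With RelA-dTA1 it reached 1660 and 2258 CPM from 995 and 1340 CPM, a change of 0.75 ± 0.31 that did not pass (adjusted p = 0.067, and 0.00015 with the set as a block). At 8 h RelA-dTAD was at 975 and 1510 CPM and EV at 485 and 664 CPM, 1.02- and 1.12-fold the 0 h level in RelA-dTAD and 1.02- and 0.93-fold in EV. H2-K1 (chr17:33996017-34000333, minus strand) encodes the peptide-binding heavy chain H-2K. It went from 124 and 166 CPM at 0 h to 338 and 433 CPM at 3 h and 877 and 933 CPM at 8 h with RelA-WT (2.64 ± 0.52 at 8 h, adjusted p = 0.0004). RelA-dTA1 reached 672 and 996 CPM, RelA-dTAD 273 and 508 CPM from 151 and 286 CPM, and EV 64.1 and 109 CPM from 46.3 and 80.8 CPM. Heavy chain genes are near copies of each other, so the share of reads that the counting gave to H2-K1 is uncertain.

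The stretches before the starts of B2m and H2-K1 are shown because they hold matches to the motifs of the factors that this study varied, NF-kB, and of the interferon regulatory factors. Capitals mark the matches in the 250 bases before the annotated start (RefSeq, GRCm38.p6, printed 5′ to 3′ on the gene's strand).
B2m, chr2:122147437-122147686, plus strand: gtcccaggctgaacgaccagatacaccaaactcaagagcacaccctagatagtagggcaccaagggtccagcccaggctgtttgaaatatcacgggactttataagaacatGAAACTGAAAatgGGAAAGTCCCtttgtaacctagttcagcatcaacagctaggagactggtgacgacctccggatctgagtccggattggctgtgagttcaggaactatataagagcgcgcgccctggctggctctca
H2-K1, chr17:34000334-34000583, minus strand: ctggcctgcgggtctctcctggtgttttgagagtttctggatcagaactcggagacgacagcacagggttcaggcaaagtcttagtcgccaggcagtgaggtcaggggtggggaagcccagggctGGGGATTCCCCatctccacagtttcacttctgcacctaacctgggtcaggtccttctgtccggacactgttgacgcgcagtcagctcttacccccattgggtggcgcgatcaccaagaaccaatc
In B2m, GAAACTGAAA, a match to the interferon motif (GAAA, any 2 bases, GAAA), ran from -139 to -130, and a match to the NF-kB consensus on the opposite strand ran from -126 to -117, where the printed strand reads GGAAAGTCCC. In H2-K1, GGGGATTCCCC at -125 to -115 from this start matched the NF-kB consensus on both strands, with overlapping matches. From another RefSeq start of H2-K1 (window chr17:34000298-34000597) the same letters lie at -111 to -101. RefSeq windows of 300 bases (250 before the start to 50 after it) were at hand for 7 of the 10 members. Those of Psmb8, Psmb9, Psmb10, Tap1 and Tapbp held neither motif on either strand. Some RefSeq starts lie inside the gene entries given above. The Tapbp window began at 33919228 and its entry at 33915899, and the Psmb8 window at 34197945 and its entry at 34197721. The Psmb9 window (minus strand) ended at 34187580 and its entry at 34187764. For these genes the stretch before the start of the entry was not searched. Of 32851 windows, 8.46% held the NF-kB consensus, 3.44% the interferon motif and 0.247% both. The letters GGGGATTCCCC, searched after they were seen in H2-K1, stood in 10 of the 32851 windows, 2 of them those of H2-K1, with 1 each for H2-D1 and H2-Q6, and not in those of H2-Q4, H2-Q7, H2-Q10, H2-T22, H2-T23 and H2-M3. The rest of these 10 windows were those of Aipl1, Atg16l2, Meig1, Pdzd2, Tfap2d and Zfp385b, with no heavy chain gene among them. A match is a description of letters and shows no binding. Sites that depart from a motif in any fixed base were not searched. A window without a match can therefore still hold a related site.

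Nlrc5 (chr8:94472763-94527272, plus strand), the coactivator of the class I genes, had few reads at 0 h and rose most between 3 and 8 h. With RelA-WT it was at 18.9 and 18.5 CPM at 0 h, 28.3 and 46.8 CPM at 3 h, and 110 and 97.1 CPM at 8 h. RelA-dTA1 gave 16.7 and 25.0 CPM, 24 and 51.2 CPM, and 86.3 and 116 CPM at the same times, and overlapped with RelA-WT at each. RelA-dTAD held 17.2 and 21.0 CPM at 0 h and 16.6 and 21.2 CPM at 3 h, then rose to 34.9 and 49.3 CPM at 8 h (1.16 ± 0.34, adjusted p = 0.0075). EV went from 4.15 and 9.96 CPM to 5.74 and 12.2 CPM (0.41 ± 0.41). The RelA-WT change was 1.03 ± 0.35 at 3 h (adjusted p = 0.043) and 2.47 ± 0.35 at 8 h (adjusted p = 8.6e-06).

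Counted over the 10 genes, the response came between 1 and 8 h. None of the 10 was called at 0.5 h or 1 h in any of the 4 replicated constructs by edgeR, at the adjusted or the unadjusted threshold or with the set as a block, or by DESeq2. Genes called higher were then 0.776% and 2.55% of all tested in RelA-WT, 0.615% and 1.41% in RelA-dTA1, 0.439% and 0.534% in RelA-dTAD and 0.402% and 0.768% in EV. At 3 h, 8 of 10 had risen in RelA-WT, where 10.5% of all 13665 genes had, and 6 in RelA-dTA1 (9.58%). The exceptions in RelA-WT were B2m (0.37 ± 0.31, adjusted p = 0.50) and H2-K1 (1.42 ± 0.50, adjusted p = 0.053, and 2.5e-05 with the block). In RelA-dTA1, Tap2 (1.44), B2m (0.27), Nlrc5 (0.87) and H2-K1 (1.06) also fell short, and with the block 9 of 10 were called (17.1% of all genes). The RelA-WT count at 3 h was 4 without RelA-WT replicate 1 and 3 without replicate 2. None had risen in RelA-dTAD (2.28%) or EV (3.02%) by edgeR or DESeq2. At an unadjusted p below 0.05 there were 0 in RelA-dTAD and 1, lower, in EV: Tapbpl, which was called lower with the block (-0.47 ± 0.17, blocked adjusted p = 0.041, 7% of all genes).

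At 8 h all 10 were higher in RelA-WT, where 15.8% of genes were, and 9 in RelA-dTA1 (19.4%), B2m being the exception. Their median change in RelA-WT was 2.52, against -0.03 over all genes. In RelA-dTAD 2 of 10 were called, Psmb10 and Nlrc5, a share near the 24.4% of all genes called higher there. With the block there were 7, adding Psmb8, Psmb9, Tap1, Tap2 and H2-K1, against 31.8% of all genes. The RelA-dTAD count was 0 without RelA-dTAD replicate 2 and 1 without replicate 1. None was called higher in EV by edgeR or DESeq2, where 25.6% of genes were by edgeR; 2 had an unadjusted p below 0.05 in either direction, and with no filter on low counts 1 was higher. In folds within a set, the 10 genes spanned 1.92 to 11.5 in RelA-WT (median 5.73), 1.67 to 8.20 in RelA-dTA1 (4.96), 0.915 to 2.35 in RelA-dTAD (1.48) and 0.539 to 2.42 in EV (0.952). The highest EV fold was that of Psmb8 in set 1, which went from 10 to 14 reads.

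The test of the difference in response separated EV and RelA-dTAD from RelA-WT. At 8 h the response of 9 members was smaller in EV than in RelA-WT, against 7.9% of all genes, with a median difference of -2.74. Psmb9 rested in EV on 6 and 21 reads at 0 h and 6 and 17 at 8 h. Psmb8 had 10 and 70 reads in EV at 0 h and 14 and 61 at 8 h, so the EV changes of this pair are uncertain. The differences ran from -3.00 for Tap2 and -2.94 for Tap1 to -2.06 for Nlrc5, and B2m fell short (-1.0 ± 0.44, adjusted p = 0.13, and 0.00065 with the block). That count was 4 without EV replicate 2 and 5 without either RelA-WT replicate. In RelA-dTAD the response of 5 was smaller than in RelA-WT (5.8% of all genes): Psmb9 (-2.48 ± 0.58, adjusted p = 0.0055), Psmb10 (-2.0), Tap1 (-1.82 ± 0.54, adjusted p = 0.027), Tapbp (-1.57) and Tapbpl (-2.05). The other 5 had values of -2.12 for Psmb8, -1.95 for Tap2, -0.85 for B2m, -1.32 for Nlrc5 and -1.79 for H2-K1 that did not pass, and with the block all 10 did, against 12.9% of all genes. Leaving out either RelA-WT replicate, or RelA-dTAD replicate 2, left 3 of the 10.

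Without the block, no difference between the responses of RelA-dTA1 and RelA-WT was called for any member, or for any gene (0%). The values of the members at 8 h were -0.48 to -0.10. For the members this held for DESeq2 and for an unadjusted p below 0.05 as well. Their 95% intervals at 8 h were wide for some genes: -1.78 to 1.17 for Psmb8, against -0.62 to 0.06 for Tapbp. With the block, 1 of the 3 class II presentation genes tested had a smaller response in RelA-dTA1 at 3 h and at 8 h. Against RelA-dTAD, the 8 h response with RelA-dTA1 was larger for Psmb9 (2.22 ± 0.57, adjusted p = 0.018), Psmb10 (1.9 ± 0.27), Tapbp (1.28 ± 0.17) and Tapbpl (1.84 ± 0.22), 4 of 10 where 3.13% of all genes were called higher, and for all 10 with the block (9.56%). At 3 h only Psmb10, Tapbp and Tapbpl, the members with the tightest replicates, had a smaller response than in RelA-WT, both in EV (-1.89, -1.08 and -2.11; 2.8% of all genes) and in RelA-dTAD (-1.41, -1.04 and -1.66; 2.5%). With the block this was 8 of 10 in each (5.77% and 5.53%). These comparisons share the RelA-WT libraries.

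Before TNF, the libraries of EV lay below those of RelA-WT, while the test without the block called 1 gene. At 0 h every RelA-WT, RelA-dTA1 and RelA-dTAD library lay above the EV library of its set for all 10 genes. Psmb8 differed by -2.25 ± 0.66 (adjusted p = 0.24, and 0.0022 with the block), Psmb9 by -1.59, Tap1 by -1.46, Nlrc5 by -1.35, H2-K1 by -1.20, Tap2 by -1.17 and B2m by -0.84. At 0 h Psmb8 rested in EV on 10 and 70 reads and Psmb9 on 6 and 21. Only Tapbp was called (-0.64 ± 0.12, adjusted p = 0.0083), where 0.563% of all genes were called lower, and it was not called without EV replicate 1. With the block 9 of the 10 were called, all but Tapbpl (-0.38), against 1.08% of all genes. RelA-dTAD was higher than EV for Psmb9 (2.14 ± 0.50, adjusted p = 0.04) and Tapbp (0.66 ± 0.12, adjusted p = 0.0045), 2 of 10 against 0.637% of all genes, and for 9 with the block (1.19%). Leaving out EV replicate 1, or either RelA-dTAD replicate, left 0 of these. At 0 h no member differed between RelA-dTA1 or RelA-dTAD and RelA-WT, where 0% and 0.0293% of all genes did in either direction, and none did at an unadjusted p below 0.05 or by DESeq2.

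By 8 h the levels themselves stood far apart. All 10 were lower in EV than in RelA-WT (15.2% of all genes), from -4.96 for Psmb8 to -1.83 for B2m. In RelA-dTAD 8 were lower (11.5%), and all 10 with the block (19.1%). The exceptions were B2m (-0.72, adjusted p = 0.10) and H2-K1 (-1.19, adjusted p = 0.081), and without RelA-dTAD replicate 1 the count was 4. None was called between RelA-dTA1 and RelA-WT (0.00732%), also at an unadjusted p below 0.05 and by DESeq2, with values of -0.24 to 0.08.

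The 7 constructs with 1 library per time were tested in a fit of all 75 libraries. It takes the spread from the replicated groups, so each lone library is assumed to vary like those. This fit has a term for the set, so counts of calls cannot be compared with those made above without the block. Shares of all genes below are those of edgeR with that term at the adjusted threshold. Counts of members by DESeq2, at an unadjusted p, or without the filter or that term have no share beside them. They cannot be set against these shares. RelA-DB and RelA-dCterm, both in set 1, stayed far below RelA-WT of that set. Psmb8 went from 2.77 to 5.85 CPM with RelA-DB and from 2.83 to 6.27 CPM with RelA-dCterm between 0 h and 8 h, against 154 CPM in the RelA-WT library of that set. H2-K1 went from 44.7 to 77.6 CPM with RelA-DB and from 55.6 to 110 CPM with RelA-dCterm, and B2m from 506 to 582 CPM and from 541 to 601 CPM. The EV library of the set had 64.1 CPM of H2-K1 and 7.41 CPM of Tap1 at 8 h, against 13.5 CPM of Tap1 with RelA-DB and 21.5 CPM with RelA-dCterm. The 8 h levels of these constructs were not tested against EV. Psmb9 rested on 4 and 3 reads with RelA-DB and 3 and 10 reads with RelA-dCterm, too few to read a change. RelA-DB minus EV was 0.003 ± 1.53 for Psmb8 at 0 h and -0.30 ± 1.35 for the 8 h response of Psmb9. With errors this wide, the comparisons with EV below cannot show that RelA-DB is like EV for these genes. At 8 h in set 1 all 10 genes ranked in the order RelA-WT, RelA-dTA1, RelA-dTAD, RelA-dCterm, RelA-DB, and RelA-DB lay above EV for 9.

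By edgeR none of the 10 rose at 8 h with RelA-DB (21.4% of all genes did), also at an unadjusted p below 0.05, while DESeq2, and edgeR with no filter on low counts, each called 2 higher. Tapbpl fell, from 13.9 to 7.38 CPM (-0.91 ± 0.33, adjusted p = 0.023; 19.9% of genes fell). With RelA-dCterm edgeR and DESeq2 each called 1 member higher, by edgeR H2-K1 (0.99 ± 0.36, adjusted p = 0.034; 20.9%), which was not called without the set term; with no filter on low counts 3 were higher. The 8 h response was smaller than in RelA-WT for 7 members in RelA-DB (9.81% of all genes) and 7 in RelA-dCterm (9.75%). In both, Psmb8, Psmb9 and Nlrc5 were the exceptions, and without the set term 3 members were called in each. The largest called differences were -2.89 for Tapbpl in RelA-DB and -2.8 for Tap2 in RelA-dCterm. At 0 h Tapbp was lower in RelA-DB than in RelA-WT (-0.76 ± 0.16, adjusted p = 0.029; 0.417% of genes), and in the other 6 constructs no member was called at 0 h by edgeR. At an unadjusted p below 0.05 there were 8 in RelA-dCterm, 4 in RelA-TA2_CI_S467A and at most 1 in each of the rest, and DESeq2 called 5 in RelA-dCterm. Over all genes, 0.053% were called in RelA-dCterm, 0.0265% in RelA-TA2_CI, 0.0398% in RelA-TA2_CI-dTA1, 0.0464% in RelA-TA2_CI_S467A-dTA1 and 0% in the remaining constructs. In contrasts added after the levels were seen, no member differed between RelA-DB and EV at 0 h (0.00663% of genes) or in 8 h response (0%), or between RelA-dCterm and EV at 0 h (0.00663%), by edgeR, DESeq2 or at an unadjusted p below 0.05. Between RelA-dCterm and RelA-dTAD none differed in 8 h response (0%), and at 0 h edgeR called 0 (0.0199%), DESeq2 5 and an unadjusted p below 0.05 gave 9.

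RelA-TA2_CI, RelA-TA2_S467A and RelA-TA2_CI_S467A raised all 10 genes by 8 h, as RelA-WT did. Psmb8 rose from 16.8 to 165 CPM, from 18.4 to 182 CPM and from 13.6 to 184 CPM in these constructs by 8 h, against 22.1 to 176 CPM in RelA-WT of the same set. H2-K1 reached 873, 960 and 905 CPM, and B2m 2007, 2103 and 1958 CPM. All 10 genes were called higher at 8 h in each (15.4%, 15.5% and 18.7% of all genes), and 8, 9 and 8 at 3 h (8.25%, 10.7% and 9.33%), or 4 in each at 3 h without the set term. No member's 8 h response differed from that in RelA-WT by edgeR, by DESeq2 or at an unadjusted p below 0.05 (0.0331%, 0% and 0% of all genes), with values of -0.38 to 0.35, -0.15 to 0.41 and 0.04 to 0.51.

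Where the TA2 changes were joined to dTA1, the response was smaller. With RelA-TA2_CI-dTA1, Psmb8 went from 17.3 CPM to 24.5 CPM at 3 h and 67.7 CPM at 8 h, Tapbp from 389 to 458 and 644 CPM, and H2-K1 from 219 to 269 and 523 CPM. RelA-TA2_CI_S467A-dTA1 gave 18.1, 23.2 and 85.8 CPM for Psmb8, 355, 447 and 720 CPM for Tapbp, and 179, 250 and 544 CPM for H2-K1. At 8 h in set 2, both lay below RelA-WT, RelA-dTA1 and the 3 TA2 constructs for all 10 genes. RelA-TA2_CI-dTA1 was above RelA-dTAD for all 10, and RelA-TA2_CI_S467A-dTA1 for 9, all but B2m. The median 8 h fold over the 10 genes was 2.62 with RelA-TA2_CI-dTA1 and 3.08 with RelA-TA2_CI_S467A-dTA1, against 5.73 with RelA-WT and 1.48 with RelA-dTAD.

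At 8 h 9 of 10 were called higher with RelA-TA2_CI-dTA1 (22.7% of all genes), all but B2m (0.38 ± 0.20, adjusted p = 0.13), and all 10 with RelA-TA2_CI_S467A-dTA1 (21.8%). Without the set term the first count was 5. At 3 h 2 were called with RelA-TA2_CI-dTA1 (4.31%), Psmb9 (1.08 ± 0.30, adjusted p = 0.021) and Psmb10 (0.64 ± 0.19, adjusted p = 0.034), and none without the set term. No member was called at 3 h with RelA-TA2_CI_S467A-dTA1 (3.78%), RelA-DB (3.73%) or RelA-dCterm (2.19%). The 8 h response was smaller than in RelA-WT for 7 members with RelA-TA2_CI-dTA1 (5.81% of genes), all but Tap1, B2m and Nlrc5. With RelA-TA2_CI_S467A-dTA1 it was smaller for 4 (3.15%): Psmb9 (-1.16), Psmb10 (-0.87), Tapbp (-0.79) and Tapbpl (-1.19). Without the set term these counts were 2 and 1.

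The joined mutants were also set against RelA-dTA1 and RelA-dTAD, in contrasts added after the levels were seen. At 8 h the response with RelA-TA2_CI-dTA1 was smaller than with RelA-dTA1 for Psmb9 (-1.41 ± 0.36, adjusted p = 0.017), Psmb10 (-0.91 ± 0.22), Tapbp (-0.79 ± 0.21) and Tapbpl (-1.01 ± 0.21), 4 of 10 against 2.19% of all genes, and at 3 h for Tapbpl (-1.1; 0.888%). With RelA-TA2_CI_S467A-dTA1 it was smaller for Psmb10 and Tapbpl at 3 h (-1.0 and -1.26; 1.22%) and at 8 h (-0.77 and -1.0; 0.987%). Against RelA-dTAD at 8 h, RelA-TA2_CI_S467A-dTA1 had a larger response for Psmb9 (1.38), Psmb10 (1.1) and Tapbpl (0.88), 3 of 10 against 0.437% of genes. RelA-TA2_CI-dTA1 was not called against it for any member (0.0398%) by edgeR or DESeq2, with values of 0.28 to 0.96, of which 7 had an unadjusted p below 0.05. None of these calls held without the set term.

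**Figure D3:**
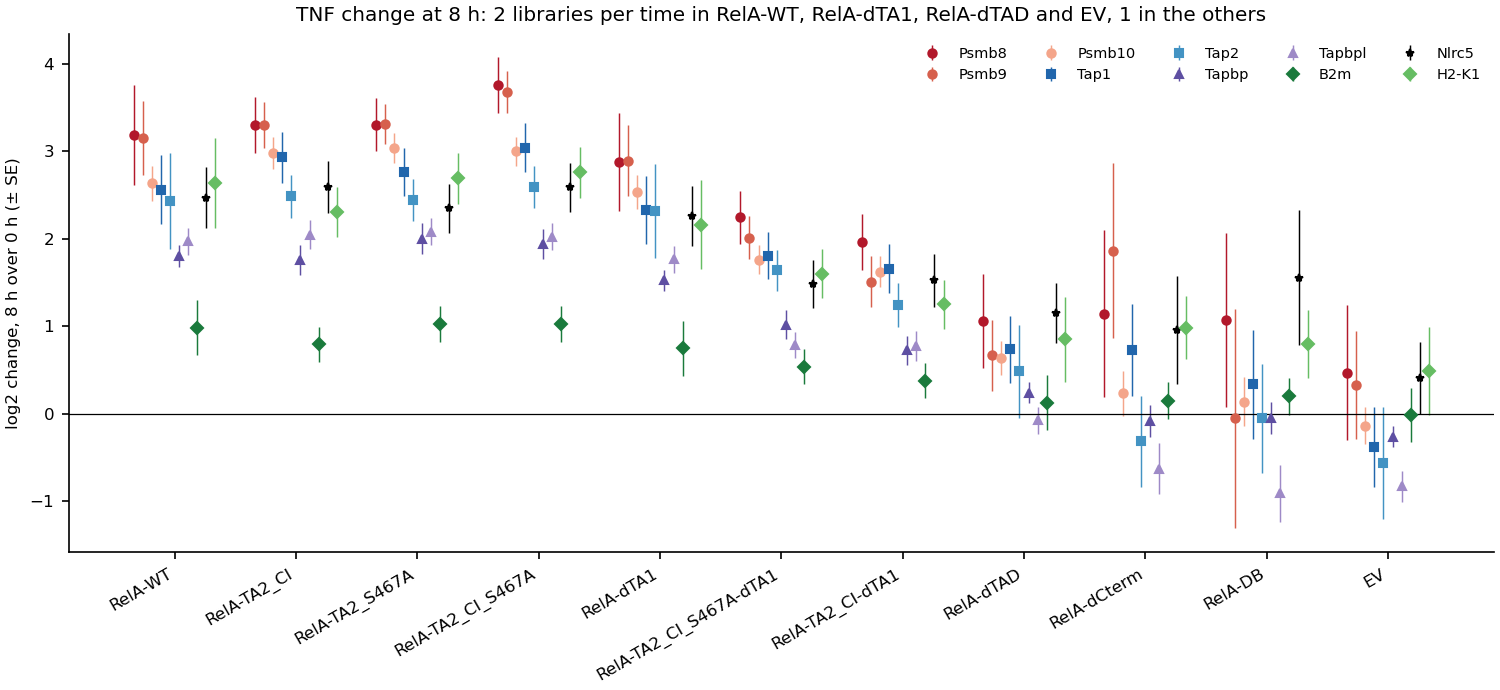
Log2 fold change at 8 h over 0 h with its standard error, for the 10 genes in the 11 constructs. The 4 replicated constructs come from the 40-library fit, without a term for the set. The 7 others come from the 75-library fit, which has that term, so bar lengths cannot be compared between the fits. In RelA-WT the points run from 0.98 (B2m) to 3.18 (Psmb8), and Tapbpl lies below 0 in EV and RelA-DB.

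**Figure D4:**
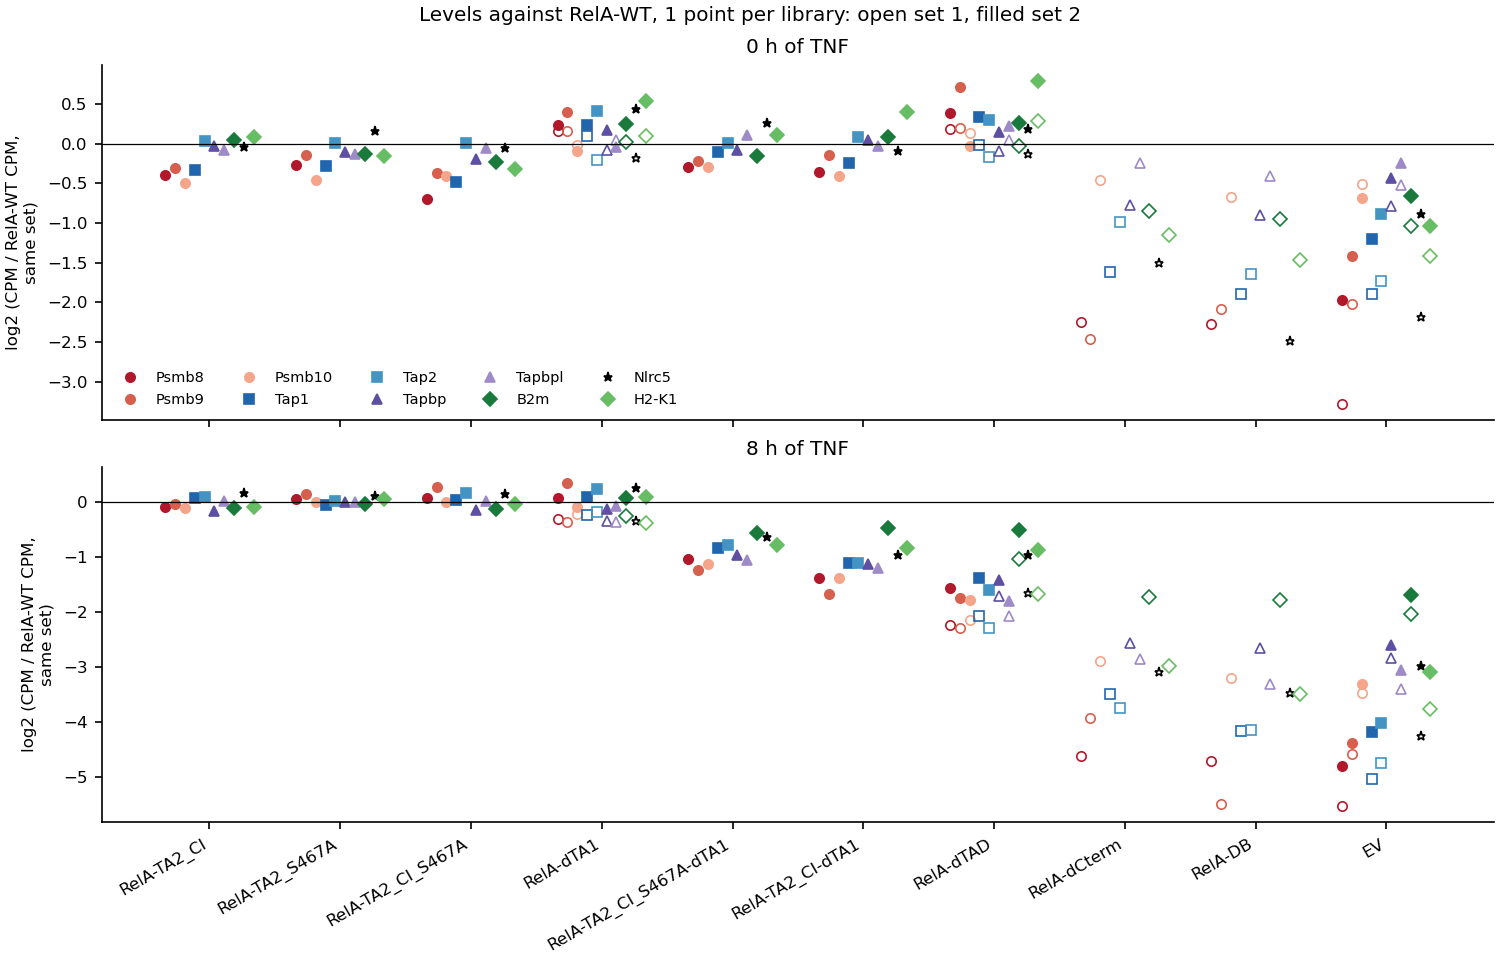
Level of each gene relative to RelA-WT of the same set, as log2 of the CPM ratio, at 0 h and 8 h. Open points are set 1, filled points set 2, and 0 is the RelA-WT level. At 8 h EV, RelA-DB and RelA-dCterm lie far below 0, RelA-dTAD lies below 0, and both joined mutants lie between RelA-dTAD and RelA-WT for most genes.

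Other genes of the pathway were followed in fixed lists. Of 3 proteasome activator genes, which encode caps that open the proteasome, all 3 were higher at 8 h with RelA-WT: Psme1 (1.29), Psme2 (1.43) and Psme3 (0.97). Psme3 rose in EV as well (1.47) while Psme1 fell there (-0.31). Of 4 genes of peptide trimming and loading, 2 rose with RelA-WT at 8 h, the trimming peptidase Erap1 (1.74) and the chaperone Calr (0.21), while Canx (0.18, called with the block at an adjusted p of 0.023) and Pdia3 (0.097) did not pass. Of 11 other class I heavy chain genes 9 were tested, and with RelA-WT 4 were higher at 3 h and 8 at 8 h (8 and 9 with the block), with a median 8 h change of 1.85, against -0.03 over all genes. H2-D1, the other classical heavy chain, changed by 1.85 ± 0.35, H2-Q4 by 3.19, H2-Q6 by 4.38, H2-Q7 by 2.57 and H2-M3 by 1.65, with the same limit on shared reads as for H2-K1. The ninth, H2-T24, had 1.26 (adjusted p = 0.061, and 0.018 with the block). All 9 rose with RelA-dTA1, 2 with RelA-dTAD (H2-T22, 0.90, and H2-M3, 0.58; 6 with the block) and none in EV.

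Class II genes were followed for comparison. Of 6 class II presentation genes 3 passed the filter, and with RelA-WT Cd74, the invariant chain, rose at 8 h (4.88), while H2-DMa (0.078) and H2-DMb1 (1.04) did not pass. Of 7 genes for interferons, their receptors and Socs1, 5 were tested and all 5 were higher at 8 h, with Ifngr1 at 1.56, Ifngr2 at 1.60, Ifnar2 at 1.09, Ifnar1 at 0.67 and Socs1 at 0.74. The interferon genes themselves were scarcely read: Ifnb1 reached at most 0.833 CPM, 17 reads, and Ifng at most 1 read in any library.

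Among 12 transcription factors known to act on class I genes, 11 were tested, of which 5 were higher at 3 h with RelA-WT (7 with the block). At 8 h 7 were higher (8 with the block) and 1, Rfxank (-0.67), was lower. Irf1, an interferon regulatory factor that binds the promoters of such genes, moved ahead of the members. Its mean level with RelA-WT was 54.8 CPM at 0 h, 480 CPM at 0.5 h, 947 CPM at 1 h, 479 CPM at 3 h and 326 CPM at 8 h. The change was 3.14 at 0.5 h and 4.12 at 1 h, times at which no member was called. Of the 11 factors tested, 2 were called higher at 1 h with RelA-WT, or 3 with the block. The part of Irf1 or of the other factors in the changes of the members was not tested. With RelA-dTA1 Irf1 peaked at 460 CPM at 1 h, with RelA-dTAD at 102 CPM at 3 h, and in EV it was at 40.9 CPM at 0 h and 18.8 CPM at 8 h, where it fell (-1.09 ± 0.17). RelA-TA2_CI-dTA1 and RelA-TA2_CI_S467A-dTA1 reached 164 and 145 CPM at 3 h. Irf2 (0.81), Irf7 (1.74), Stat2 (0.81) and Stat3 (0.46) rose at 8 h with RelA-WT. Rfx5, a part of the complex that NLRC5 works through, rose at 3 h (1.07) and had 0.57 at 8 h (adjusted p = 0.17, and 7.7e-05 with the block). Ciita, the class II counterpart of Nlrc5, rose by 2.84 at 8 h at a level of at most 2.34 CPM in any library.

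**Figure D5:**
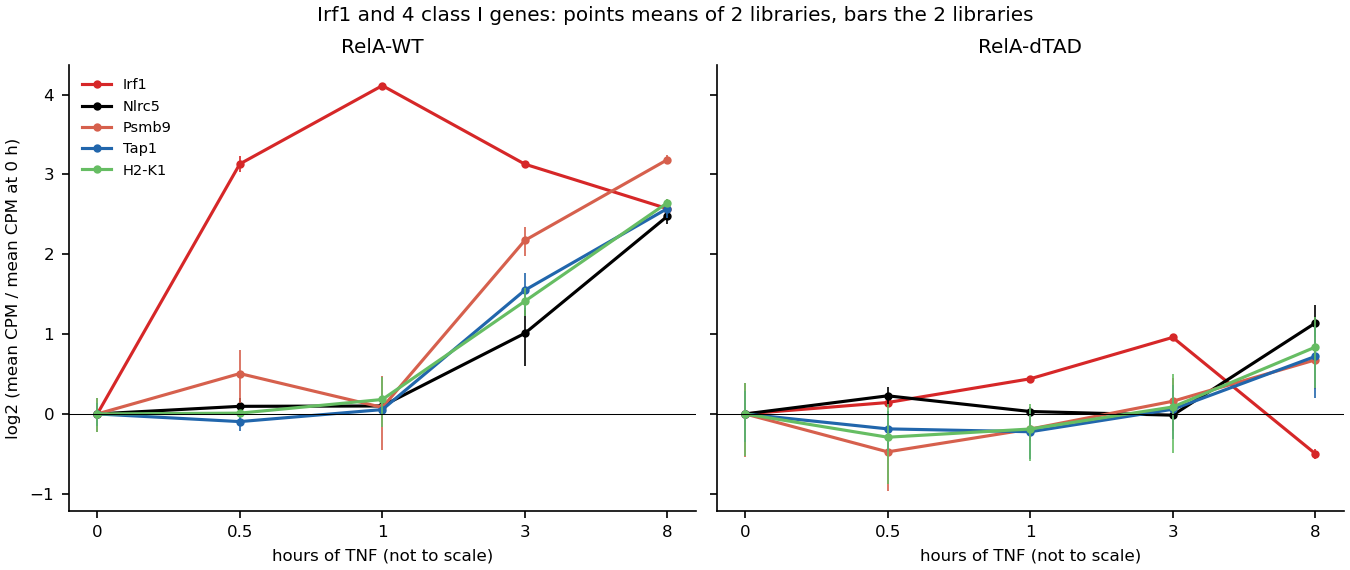
Log2 change of the mean CPM from 0 h for Irf1, Nlrc5, Psmb9, Tap1 and H2-K1 at each time (spaced evenly) in RelA-WT and RelA-dTAD, with bars that span the 2 libraries. Irf1 is highest at 1 h with RelA-WT, while Psmb9, Tap1, H2-K1 and Nlrc5 are highest at 8 h.

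Over the 55 construct and time groups, the 10 genes kept close to their own mean standardised profile, with Pearson r from 0.927 (Tapbpl) to 0.993 (Tap1). Ranked over 15090 genes by this r, Tap1, Tapbp, Tap2 and Psmb8 held ranks 1 to 4, and B2m and Tapbpl ranks 36 and 82. The profile is the mean of these same 10 genes, so their own r and ranks are partly built in. Among the 10 other genes most like the profile were Ube2l6 (0.982), Samd9l (0.975), Nmi (0.975), H2-M3 (0.974), H2-Q4 (0.970), Parp10 (0.970), Parp9 (0.970), Gbp9 (0.968) and Gbp7 (0.967). Groups share libraries' sets and constructs, so these values describe the 55 groups and carry no p.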

How the data were processed

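Poly(A) RNA of 75 libraries was made with a stranded kit from 1 µg of total RNA and 12 cycles of PCR and sequenced as single 50-base reads, per the labels' protocols. The authors' deposited tables hold raw read counts per gene, not normalized, for mm10 gene entries in 2 sets. The submitters' processing notes name cutadapt 1.9.1, STAR, featureCounts 1.5.0 and DESeq2; their strand and multi-mapping settings are not given in the sources used here. Of 45706 entries 45143 (98.77%) matched a gene symbol. PCR duplicates and shared reads between near copies could alter single values.

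From the counts, CPM used TMM-scaled library sizes (edgeR 4.0.16, R 4.3.3, limma 3.58.1). edgeR's robust quasi-likelihood test with Benjamini-Hochberg adjustment over all genes (threshold 0.05) was fitted on the 40 libraries of RelA-WT, EV, RelA-dTAD and RelA-dTA1 (13665 genes after the low-count filter, 20 residual degrees of freedom), and on all 75 libraries with a term for the set for the 7 constructs with 1 library (15090 genes, 19 degrees of freedom). Groups came from the labels' construct and time, and sets from the deposited tables. Same-numbered libraries deviated together: over 190 pairs of groups the correlation of deviations from group means was 0.357 to 0.668 (median 0.526). The numbers therefore paired the samples, and the fit with the set as a block is given beside the calls it changes. Alternatives were no filter, RLE scaling, DESeq2 1.42.0, leaving out each replicate of a construct in turn, and the fit with or without the block. Shares of all genes are those of edgeR at the adjusted threshold, with the block where stated. Member counts by DESeq2, at an unadjusted p, without the filter or the set term, or with a replicate left out carry no such share. On simulated counts the 8 h contrast of RelA-WT (13665 genes) recovered 68% of genes changed 2-fold and 93% of those changed 4-fold, and that of RelA-DB (15090 genes) 13% and 75%. Every simulated gene had the same spread in both runs, and the sets were shifted only in the run of 75 libraries. The fits of the data had common dispersions of 0.0224 (40 libraries) and 0.00383 (75 libraries). These rates therefore hold for the simulated spread and not for each gene of the data.

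The members and lists were chosen with earlier results of these data known. All 10 members are named; context lists are given by counts with values for named genes; the genes most like the members are the 10 other genes with the highest Pearson r to their mean profile. No list was tested as a set. Some genes of these lists are not reported here.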

Additional observations from a re-analysis of the deposited data

Results flagged for a closer look

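The responses to TNF that differed from that of RelA-WT by the test of the difference itself (edgeR, adjusted over all genes) drew attention because the same stimulus gave different changes in different constructs. Values are differences in log2 change from 0 h, construct minus RelA-WT. At 3 h they were -2.11 for Tapbpl, -1.89 for Psmb10 and -1.08 for Tapbp in EV, and -1.66, -1.41 and -1.04 for the same genes in RelA-dTAD. At 8 h in EV the transporter genes differed most, Tap2 by -3.0 and Tap1 by -2.94, followed by Psmb9 (-2.82), Tapbpl (-2.8), Psmb10 (-2.77), Psmb8 (-2.71), H2-K1 (-2.15), Tapbp (-2.07) and Nlrc5 (-2.06). Psmb9 rested in EV on 6 and 21 reads at 0 h and 6 and 17 at 8 h, and Psmb8 in set 1 on 10 and 14. In RelA-dTAD at 8 h the differences were -2.48 for Psmb9, -2.05 for Tapbpl, -2.0 for Psmb10, -1.82 for Tap1 and -1.57 for Tapbp.

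Among constructs with 1 library per time, RelA-DB at 8 h gave -2.89 for Tapbpl, -2.54 for Tap2, -2.49 for Psmb10, -2.26 for Tap1, -1.90 for H2-K1, -1.86 for Tapbp and -0.79 for B2m. RelA-dCterm gave -2.8 for Tap2, -2.61 for Tapbpl, -2.39 for Psmb10, -1.89 for Tapbp, -1.86 for Tap1, -1.71 for H2-K1 and -0.84 for B2m. For RelA-TA2_CI-dTA1 the differences were -1.66 for Psmb9, -1.44 for H2-K1, -1.29 for Psmb8, -1.24 for Tap2, -1.20 for Tapbpl, -1.08 for Tapbp and -1.0 for Psmb10. Those of RelA-TA2_CI_S467A-dTA1 were -1.19 for Tapbpl, -1.16 for Psmb9, -0.87 for Psmb10 and -0.79 for Tapbp. All comparisons share the RelA-WT libraries.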

How the results depend on the processing

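RLE scaling moved no count of members by over 1.5 times, and 289 of the 290 member values that were compared kept their direction and side of the threshold, 1 falling below it. DESeq2 kept 268, raised 15 past the threshold and lowered 7. With the replicate block, which pairs the libraries of a set, 111 of 160 member values kept their side and 49 newly passed; with no replicate block in the 75-library fit 95 of 130 kept their side and 35 no longer passed. Where a count moved, the cause was not tested. The member counts below are given without the share of all genes called in the same setting. Counts over all genes moved by over 1.5 times as well, in 27 of 30 contrasts with the block and 32 of 69 without the filter. A moved count of members is therefore not a result about these genes.

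With the replicate block the number of members called went from 0 to 1 for EV at 3 h, from 2 to 7 for RelA-dTAD at 8 h, from 3 to 8 for the 3 h responses of EV and of RelA-dTAD minus RelA-WT, from 5 to 10 for the 8 h response of RelA-dTAD minus RelA-WT, from 4 to 10 for RelA-dTA1 minus RelA-dTAD, from 1 to 9 for EV minus RelA-WT at 0 h and from 2 to 9 for RelA-dTAD minus EV at 0 h. With no replicate block it went from 7 to 3 for the 8 h responses of RelA-DB and of RelA-dCterm minus RelA-WT, from 7 to 2 for RelA-TA2_CI-dTA1 and from 4 to 1 for RelA-TA2_CI_S467A-dTA1 minus RelA-WT. Within constructs it went from 1 to 0 for RelA-dCterm and from 9 to 5 for RelA-TA2_CI-dTA1 at 8 h, and at 3 h from 8 to 4 for RelA-TA2_CI and RelA-TA2_CI_S467A, from 9 to 4 for RelA-TA2_S467A and from 2 to 0 for RelA-TA2_CI-dTA1. Set against RelA-dTA1 it went from 1 to 0 at 3 h and 4 to 0 at 8 h for RelA-TA2_CI-dTA1 and from 2 to 0 at both times for RelA-TA2_CI_S467A-dTA1, and against RelA-dTAD from 3 to 0 for the latter.

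With no filter on low counts the count went from 1 to 3 at 8 h for EV, RelA-DB and RelA-dCterm, from 2 to 6 for RelA-dTAD, and from 0 to 2 at 3 h for RelA-TA2_CI_S467A-dTA1. Without the filter, responses minus RelA-WT went from 3 to 8 (EV) and 3 to 9 (RelA-dTAD) at 3 h, and from 5 to 10 (RelA-dTAD) and 4 to 10 (RelA-TA2_CI_S467A-dTA1) at 8 h. RelA-dTA1 minus RelA-dTAD then went from 4 to 10. Without the filter, RelA-TA2_CI-dTA1 minus RelA-dTA1 went from 1 to 8 at 3 h and 4 to 10 at 8 h, RelA-TA2_CI_S467A-dTA1 minus RelA-dTA1 from 2 to 9 at both times, and minus RelA-dTAD the pair went from 0 to 6 and 3 to 9. At 0 h without the filter the counts against RelA-WT went from 1 to 9 (EV), 1 to 8 (RelA-DB), 0 to 7 (RelA-dCterm), 0 to 5 (RelA-TA2_CI_S467A) and 0 to 1 (RelA-dTAD), from 2 to 9 for RelA-dTAD minus EV and from 0 to 8 for RelA-dCterm minus RelA-dTAD. DESeq2 gave 3 in place of 1 at 8 h for RelA-DB, 1 in place of 2 at 3 h for RelA-TA2_CI-dTA1 and 1 in place of 2 for RelA-TA2_CI_S467A-dTA1 minus RelA-dTA1 at 8 h. At 0 h DESeq2 gave 7 in place of 1 for RelA-DB, 5 in place of 0 for RelA-dCterm and 3 in place of 1 for EV minus RelA-WT, 5 in place of 2 for RelA-dTAD minus EV and 5 in place of 0 for RelA-dCterm minus RelA-dTAD.

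Leaving out 1 replicate of a construct gave 0 to 1 members for EV minus RelA-WT at 0 h, 0 to 3 for RelA-dTAD minus EV at 0 h, 3 to 9 for RelA-WT at 3 h, 0 to 2 for RelA-dTAD and 1 to 2 for EV at 8 h, 4 to 9 for the 8 h response of EV and 3 to 6 for that of RelA-dTAD minus RelA-WT, and 4 to 10 for the 8 h level of RelA-dTAD. The lone library left is assumed to vary like the other groups. Over single members, 1180 values kept their side and direction, 75 no longer passed, 23 newly passed and 2 uncalled values changed sign: B2m at 8 h in EV, -0.01 with all libraries, ran from -0.080 to 0.046, the latter without EV replicate 2, and the 8 h response of Tap2 in RelA-dTA1 minus RelA-WT, -0.11 with all, ran from -0.17 to 0.040, the latter without RelA-dTA1 replicate 2. Counts over all genes moved by over 1.5 times in 27 of 30 contrasts with the block, 29 of 39 without it, 32 of 69 without the filter and 9 of 69 with DESeq2.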
